A study of Mus musculus with 8 samples.

Results

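The 6 CC chemokines and 2 CC receptors of myeloid cells described here (Ccl2, Ccl3, Ccl4, Ccl5, Ccl6, Ccl9, Ccr1 and Ccr2) were followed across the leukocytes of arthritic paw joints. They were chosen by name as the CC ligands and myeloid CC receptors to describe, and all 8 were found among the 28434 gene rows of both count tables. Ccl2, Ccl9 and Ccr2 were held mostly by the class called monocyte-derived macrophages (MDM), which also took in monocyte-like cells. Ccl5 was held by NK cells and T-cells, and Ccl6 and Ccr1 by neutrophils. Ccl3 and Ccl4 were held by a fraction of the neutrophils, by NK cells and by a few cells with basophil markers. In the comparison of Mono+MCTR3 with Mono mice, 1 of these genes passed the test in 1 cell class (Ccl5 in neutrophils, lower in Mono+MCTR3), at a level that was close to the one in B-cells.

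The study used C57BL/6 mice in which arthritis was set off by injecting K/BxN serum (days 0 and 2, and again on day 9), whose autoantibodies cause joint inflammation. Cells were transferred on day 12: Mono+MCTR3 mice (n = 4) received monocytes from arthritic mice that had been kept for 90 min with 1 nM MCTR3, a lipid mediator made from docosahexaenoic acid, and Mono mice (n = 4) received monocytes kept with vehicle. Both groups thus carried the same arthritis and the same kind of cell transfer, and no group without transferred monocytes was analysed here. On day 22 CD45+ leukocytes were sorted from the paw joints and their RNA was sequenced cell by cell with unique molecular identifiers (UMIs), which count each captured RNA molecule once. The labels give no mark that would tell a transferred monocyte from a monocyte of the recipient.

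Cells were kept with 250 to 3000 genes, no fewer than 500 UMIs and no more than 5% of UMIs from mitochondrial genes, which left 10256 of 10538 barcodes, 5015 in Mono+MCTR3 and 5241 in Mono. The mice were told apart by the suffix of the barcode and are numbered by it, since no label ties a suffix to a labelled mouse. The files do not show that the suffixes are separate animals, and if they were not, the p-values would measure a technical spread only. The mice held 1731045 to 6009009 UMIs in Mono+MCTR3 and 2602412 to 3832301 UMIs in Mono, and pairs of mice shared 0 to 7 barcodes. Clustering without the CC genes gave 15 clusters, of which 6 were neutrophil-like (6945 cells), 2 B-cell-like (1409 cells), 1 T-cell-like (763 cells) and 1 NK-like (632 cells). The MDM (352 cells) comprised cluster 10 of 304 cells, with 11 of 12 macrophage markers detected, and a nonclassical-monocyte-like cluster of 48 cells. The 10 leading genes of cluster 10 held 3 macrophage markers (C1qa, C1qb and C1qc) and 3 classical monocyte markers (F13a1, Ms4a6c and Fn1). The marker scoring named it macrophage, but it is called by its number here. With 10 components a classical-monocyte-like cluster of 213 cells and a macrophage-like cluster of 139 cells came out, together more cells than cluster 10 holds. At a resolution of 1.0, with CC genes kept and at 10% mitochondrial UMIs, a classical-monocyte-like cluster of 166 to 197 cells came out, and an unnamed cluster of 186 to 210 cells led by C1qb and Siglech fell outside the MDM. Mono+MCTR3 mice 1 to 4 held 32, 91, 8 and 6 MDM, against 44, 33, 55 and 83 MDM in Mono mice 1 to 4, so the MDM values of Mono+MCTR3 mice 3 and 4 rest on very few cells.

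Chemokines are small secreted proteins that direct the movement of leukocytes, and those of the CC family carry adjacent cysteines near their amino terminus. They bind G protein-coupled receptors on the responding cell. In mice, Ccr2 is the receptor through which Ccl2 draws classical monocytes out of the bone marrow and into inflamed tissue, Ccr1 binds Ccl3, Ccl5, Ccl6 and Ccl9 and is carried by neutrophils and monocytes.

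In the mouse genome (GRCm38, GENCODE vM21) 5 of the ligand genes lie within 138.906 kb of chromosome 11, from Ccl5 at 83525778 to the end of Ccl4 at 83664683. Their order there is Ccl5, Ccl9, Ccl6, Ccl3 and Ccl4, and Ccl9 (83572919 to 83578636) lies 9.246 kb from Ccl6 (83587882 to 83593087), both on the minus strand. Ccl2 lies apart on the same chromosome (82035571 to 82037453, plus strand). The receptor genes lie 133.258 kb apart on chromosome 9, Ccr1 at 123962124 to 123968692 (minus strand) and Ccr2 at 124101950 to 124113557 (plus strand). Ccl2 overlaps Gm17268 and Ccl6 overlaps E230016K23Rik, each on the opposite strand. The sources used here do not say how strand was treated in counting.

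Ccl6 and Ccl9 are shown because these neighbouring genes were high in different cells, Ccl6 in neutrophils and Ccl9 in MDM. Of the 8 genes, 5 matched an entry in the RefSeq promoter table (Ccl3, Ccl6, Ccl9, Ccr1 and Ccr2), which gives 250 bases before and 50 after the start of each gene (GRCm38.p6). Capitals mark runs of 10 or more bases that the other sequence also holds, and both are written on the minus strand, 5′ to 3′.
Ccl6, chr11:83593038-83593337: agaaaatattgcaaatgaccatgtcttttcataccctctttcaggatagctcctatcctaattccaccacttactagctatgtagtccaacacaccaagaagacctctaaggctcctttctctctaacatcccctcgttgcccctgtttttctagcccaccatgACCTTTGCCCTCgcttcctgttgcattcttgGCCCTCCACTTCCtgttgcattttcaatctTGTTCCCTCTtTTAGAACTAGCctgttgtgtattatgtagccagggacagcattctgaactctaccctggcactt
Ccl9, chr11:83578587-83578886: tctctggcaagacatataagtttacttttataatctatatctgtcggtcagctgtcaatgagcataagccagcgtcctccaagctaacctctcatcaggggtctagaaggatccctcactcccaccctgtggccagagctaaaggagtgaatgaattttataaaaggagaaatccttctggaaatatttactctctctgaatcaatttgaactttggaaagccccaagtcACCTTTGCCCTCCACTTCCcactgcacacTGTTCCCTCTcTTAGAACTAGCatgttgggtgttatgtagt
The capitals cover 46 of 300 bases in Ccl6 and 40 of 300 bases in Ccl9. In the best window of 40 bases without gaps, 36 bases were identical between Ccl6 and Ccl9, whereas the other 9 pairs of these 5 promoters had 20 to 23 identical bases in their best window. AGGAAG, the core of ETS sites, was searched on both strands and had 2 matches in Ccl6 (both as its complement, at positions -73 and -47 from the start) and none in the other 4 promoters. It occurs in 35.1% of the 27025 promoters in the table. TATAAA was found only in the Ccl9 window among the 5 (3 matches on either strand, of which the matches at -94 and -92 overlap) and occurs in 14.2% of all promoters, and TGANTCA, the AP-1 site, also only in Ccl9, with 7.93% of all promoters holding it. Of the other motifs searched, GGGNNNTCC (kappa-B like) matched in Ccl9 and is in 17.5% of all promoters, and TTGCNNCAA (C/EBP like, 2.12%) matched in none of the 5. A match of letters is a description and not a site.

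**Figure D1:**
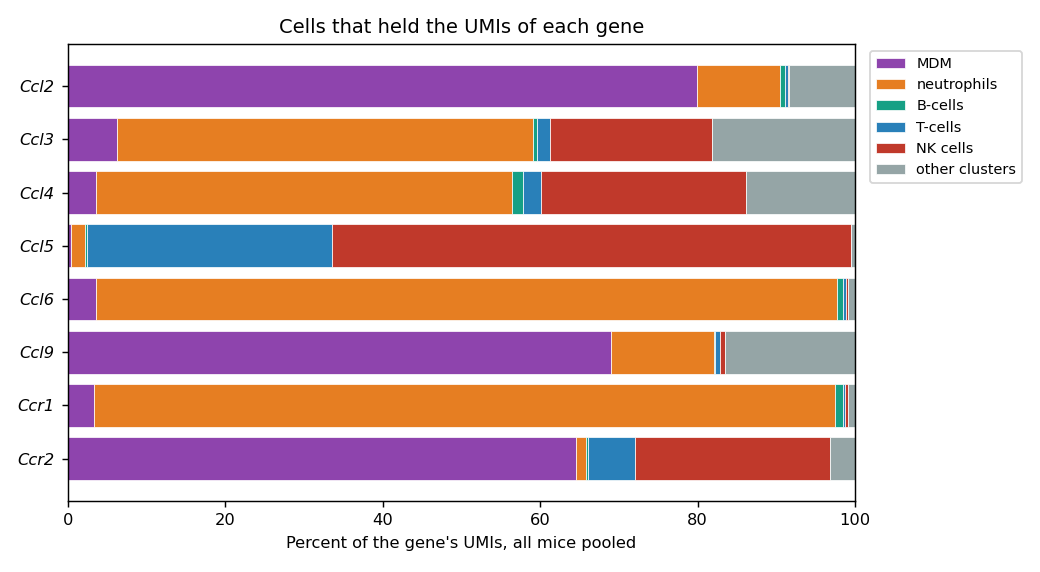
Share of each gene's UMIs (percent, horizontal axis, all mice pooled) that was held by MDM, neutrophils, B-cells, T-cells, NK cells and the other clusters, with 1 bar per gene. MDM held 79.9% of the UMIs of Ccl2 and neutrophils 94.2% of those of Ccl6, while the UMIs of Ccl3 and Ccl4 were spread over neutrophils, NK cells and other clusters.

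Ccl2, the ligand of Ccr2, was found mostly in MDM. Of its 981 UMIs, 784 (79.9%) were in MDM, and 775 of these in cluster 10, where the 260 cells with under 2 UMIs of C1qa, C1qb or C1qc held 620 of them. The level in MDM was 290.3 ± 215 CPM (SD, n = 8 mice of both groups), CPM being a gene's UMIs per 1000000 UMIs summed over a class within 1 mouse, against 7.24 ± 6.57 CPM in neutrophils, 1.42 ± 2.05 in B-cells, 0.860 ± 2.43 in T-cells and 0.294 ± 0.830 in NK cells. MDM were above neutrophils in 8 of 8 mice and without overlap, whereas the lower neighbours in this order overlapped. Ccl2 was also unevenly distributed within MDM: 30.1% of the cells had a UMI, and 11 of 352 cells held 50% of the UMIs. With mice pooled, the 260 cells of cluster 10 with under 2 UMIs of C1qa, C1qb or C1qc had 346 CPM of Ccl2. The other 44 cells of this cluster had 622 CPM, of which 1 cell held 38.1%, and ran from 0 to 9348 CPM between mice. Outside MDM, 81 UMIs were found in the 20 fibroblast-like cells, 68 of them in 1 cell of Mono mouse 2. Fibroblasts lack CD45, the marker used for the sort.

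Ccl9, a ligand of Ccr1, was also found mostly in MDM. MDM held 69.0% of its 3456 UMIs, at 1108 ± 151 CPM (SD, n = 8 mice), and 78.1% of the MDM had a UMI. Neutrophils followed at 30.2 ± 14.4 CPM, below MDM in every mouse, and NK cells, T-cells and B-cells averaged 10.3, 8.03 and 1.86 CPM, with overlapping ranges. Within MDM the gene separated the parts: 1155 CPM in cluster 10 against 198 CPM in the nonclassical-monocyte-like cluster. The 44 cells of cluster 10 with at least 2 UMIs of C1qa, C1qb or C1qc, complement genes of resident macrophages, had 2114 CPM, of which 1 cell held 23.9%, and the other 260 cells had 1022 CPM. This gap lay in the 16 such cells of Mono+MCTR3 mice (3933 CPM, with 4186 CPM in mouse 2), while the 28 such cells of Mono mice had 1086 CPM beside 1052 CPM in the rest, and in Mono mice 1 to 3 they were the lower ones. Another 16.5% of the UMIs lay outside the 5 classes, chiefly in a mixed cluster of 103 cells (cluster 11).

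Ccl6, another ligand of Ccr1, had 82003 UMIs, and 94.2% of them were in neutrophils. The level was 5184 ± 987 CPM in neutrophils, 1352 ± 264 in MDM, 187 ± 133 in B-cells, 150.1 ± 55.4 in NK cells and 124 ± 47.5 in T-cells (SD, n = 8 mice). Neutrophils were above MDM and MDM above B-cells in all mice without overlap, and the 3 lymphocyte classes overlapped. A UMI of Ccl6 was seen in 89.9% of neutrophils (median 1719 UMIs per cell) and 85.8% of MDM (median 6348), and also in 15.2% of B-cells (median 2249), 15.8% of NK cells and 19.5% of T-cells (median 2475.5 and 3569 UMIs in NK cells and T-cells). These shares were low and alike, and what part of them is background was not tested. The 1% of cells with the most held 54.5% of the Ccl6 UMIs in B-cells, 51.9% in NK cells and 49.7% in T-cells. In these 3 classes, the top cells of a mouse with at least 20 UMIs of Ccl6 also had 379 to 1027 UMIs of neutrophil markers. Some of these cells were called doublets. Per cell, neutrophils averaged 11.1 and MDM 8.32 UMIs of Ccl6, so the distance between these classes was smaller per cell than in CPM.

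Among neutrophils, Ccl6 differed between clusters. It was at 115 CPM in cluster 9, led by Fcnb and Camp, and at 434 CPM in cluster 6, led by Ltf and Ngp, granule genes of immature neutrophils. It was at 5598 CPM in cluster 1 (Retnlg, Mmp8), 9691 CPM in cluster 0, 8012 CPM in the interferon cluster 8 (Rsad2, Isg15) and 7055 CPM in cluster 2 (Ccrl2, Csf1, Tnf). The share of cells with a UMI was 34.8% in cluster 9 and 53.8% in cluster 6, and 94.8% to 99.5% in the other 4. Since the clusters were built from the other genes of the same cells, these values carry no test.

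Ccl3 is a ligand of Ccr1, and Ccl4 is its neighbour on the chromosome. NK cells had the highest level of the 5 classes, with 1993 ± 375 CPM of Ccl3 and 4434 ± 1217 CPM of Ccl4 (SD, n = 8 mice), above neutrophils in 8 of 8 mice for both genes. Neutrophils came next with 559 ± 262 CPM of Ccl3 and 1037 ± 498 CPM of Ccl4, and held 52.8% of the UMIs of each, being the most numerous cells. MDM had 423 ± 219 CPM of Ccl3 and 354 ± 213 CPM of Ccl4, and overlapped with neutrophils. T-cells had 88.5 ± 72.5 CPM of Ccl3 and 216 ± 138 CPM of Ccl4, and B-cells 36.2 ± 31.7 and 125 ± 61.6 CPM.

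In neutrophils both genes were held by a minority of the cells. Ccl3 was found in 28.3% and Ccl4 in 27.2% of the 6945 neutrophils, and 235 cells held 50% of the Ccl3 UMIs and 197 cells 50% of the Ccl4 UMIs. Cluster 2 had 2309 CPM of Ccl3 and 3616 CPM of Ccl4, against 37.1 and 59.5 CPM in cluster 9, and this cluster of 1467 cells held 29.7% of all Ccl3 and 25.7% of all Ccl4 UMIs. Cluster 2 made up 17.7% ± 6.66 of the neutrophils in Mono+MCTR3 mice and 24.5% ± 7.56 in Mono mice (SD, n = 4 each), a difference within the spread between mice (two-sided exact permutation test, p = 0.20). Within cluster 2, Ccl3 was at 2930 ± 1183 CPM in Mono+MCTR3 and 1701 ± 806 CPM in Mono mice (SD, n = 4 each). Ccl4 there was at 4904 ± 873 CPM in Mono+MCTR3 and 2365 ± 1177 CPM in Mono mice. In an edgeR test of this cluster alone, chosen after seeing the data, 0 of 1978 genes passed.

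**Figure D2:**
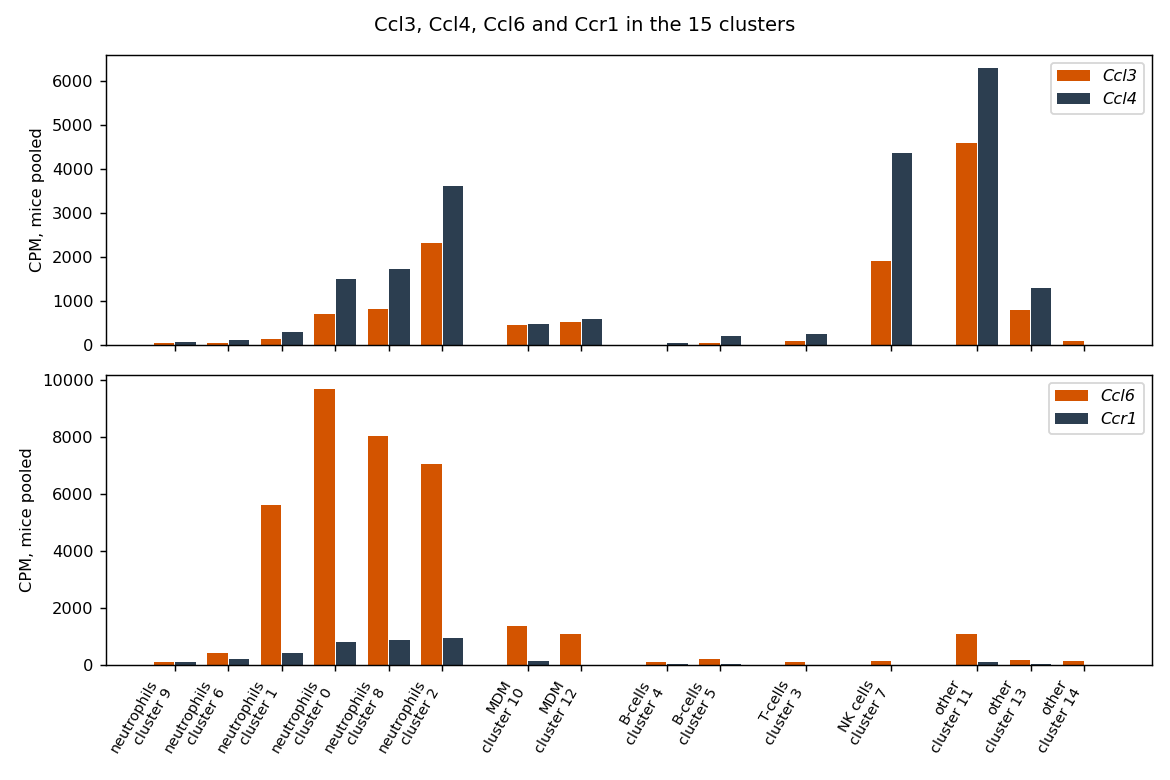
Level (CPM, vertical axes, mice pooled) of Ccl3 and Ccl4 in the upper panel and of Ccl6 and Ccr1 in the lower panel for each of the 15 clusters, grouped by cell class. Ccl3 and Ccl4 were highest in the mixed cluster 11, in NK cells and in neutrophil cluster 2, whereas Ccl6 and Ccr1 were low in neutrophil clusters 9 and 6 and high in the other 4.

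The highest level of Ccl3 and Ccl4 of any cluster was in cluster 11, a mixture of 103 cells in which basophil genes (Prss34, Mcpt8), plasmacytoid dendritic cell genes (Siglech, Cox6a2) and muscle genes (Tpm1, Atp2a1) led together. Divided by marker UMIs, it held 32 cells with basophil or mast cell markers (at least 5 UMIs) and 55 cells with plasmacytoid markers (at least 1 UMI). The 32 cells with basophil markers had 16734 CPM of Ccl3 and 18297 CPM of Ccl4 (84.4% and 90.6% with a UMI), and they also had 3825 CPM of Ccl6, 3703 CPM of Ccl9 and 448 CPM of Ccr1. By mouse, Ccl3 in these cells was at 15003, 37718 and 0 CPM in Mono+MCTR3 mice 1 to 3, against 12013, 7101, 12987 and 9268 CPM in Mono mice 1 to 4, and Mono+MCTR3 mouse 4 had no such cell. The groups overlapped and the values rest on 14 and 18 cells, and no test was made. The 55 cells with plasmacytoid markers had 2049 CPM of Ccl4 but 209 CPM of Ccl3, and no UMI of Ccl2 was found in either kind of cell. The thresholds on markers were set after the data had been seen.

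Within a class, cells with Ccl3 more often had Ccl4 too. In NK cells 85.04% of the cells with a Ccl3 UMI had one of Ccl4, against 60.3% of the cells without (median 2483 and 2427 UMIs per cell), and this held in 8 of 8 mice. In neutrophils the shares were 45.7% and 19.9%, although the cells with Ccl3 were the shallower ones (median 1499 against 1835 UMIs), again in 8 of 8 mice. In T-cells they were 48.8% and 17.3% (7 of 7 mice with cells of both kinds). In MDM they were 47.3% and 21.1% (6 of 7 mice), and the cells with Ccl3 were the deeper ones (median 6660.5 against 6149 UMIs).

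Ccl5, a ligand of Ccr1, was found mostly in NK cells and T-cells. NK cells held 65.9% and T-cells 31.1% of its 60985 UMIs. The level was 23683 ± 3774 CPM in NK cells and 6688 ± 3096 CPM in T-cells (SD, n = 8 mice), without overlap, and 99.5% of NK cells but 46.9% of T-cells had a UMI. T-cells with a UMI of Cd8a or Cd8b1 (408 cells) had 7759 CPM, and those with neither (355 cells) had 5606 CPM. The order was the opposite in mice 1 and 2 of both groups, and cells with Cd8a or Cd8b1 reached 10894 and 15618 CPM in Mono mice 3 and 4. The other classes were at 86.8 ± 135 CPM (MDM), 69.2 ± 34.5 CPM (neutrophils) and 57.6 ± 25.7 CPM (B-cells), and their ranges overlapped. A UMI was seen in 11.6% of neutrophils (median depth 1719 UMIs) and 9.72% of B-cells (median depth 2249 UMIs), a class taken to lack the gene. The share in neutrophils was thus close to that in B-cells, and somewhat above it in shallower cells.

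Ccr1, the receptor of several of these ligands, was carried by neutrophils. They held 94.0% of its 8372 UMIs at 534 ± 141 CPM (SD, n = 8 mice), and MDM followed at 138 ± 53.9 CPM, lower in every mouse and without overlap. B-cells, NK cells and T-cells had 38.5 ± 32.7, 13.9 ± 9.08 and 11.4 ± 9.03 CPM. A UMI was seen in 59.0% of neutrophils and 39.2% of MDM, against 4.61% of B-cells. Per cell the distance was smaller, 1.13 UMIs in neutrophils and 0.812 in MDM. Within neutrophils Ccr1 was at 98.1 CPM in cluster 9, 226 CPM in cluster 6, 440.5 CPM in cluster 1 and 802 to 944 CPM in clusters 0, 8 and 2. Within MDM it was at 139.6 CPM in cluster 10, with 1 UMI in all 48 nonclassical-monocyte-like cells.

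Ccr2, the receptor of classical monocytes, was at 720.2 ± 122 CPM in MDM, 326 ± 49.5 in NK cells and 43.0 ± 23.1 in T-cells (SD, n = 8 mice), each step without overlap in any mouse. Neutrophils had 1.78 ± 1.02 CPM, 29 UMIs over 6945 cells, and B-cells 0.582 ± 1.32 CPM. MDM held 64.6% and NK cells 24.7% of its 2249 UMIs, and 72.4% of MDM and 45.1% of NK cells had a UMI. The receptor was in cluster 10 (711 CPM, 83.2% of cells) and nearly absent from the nonclassical-monocyte-like cluster (2 UMIs in 48 cells). In MDM with a Ccr2 UMI, 46.7% also had one of Ccr1, against 19.6% of those without, but the cells with Ccr2 were deeper (median 7088 against 3282 UMIs per cell). The cells without Ccr2 also took in nearly all of the 48 nonclassical-monocyte-like cells, of which 1 had a Ccr1 UMI. The comparison was not made within cluster 10 alone.

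**Figure D3:**
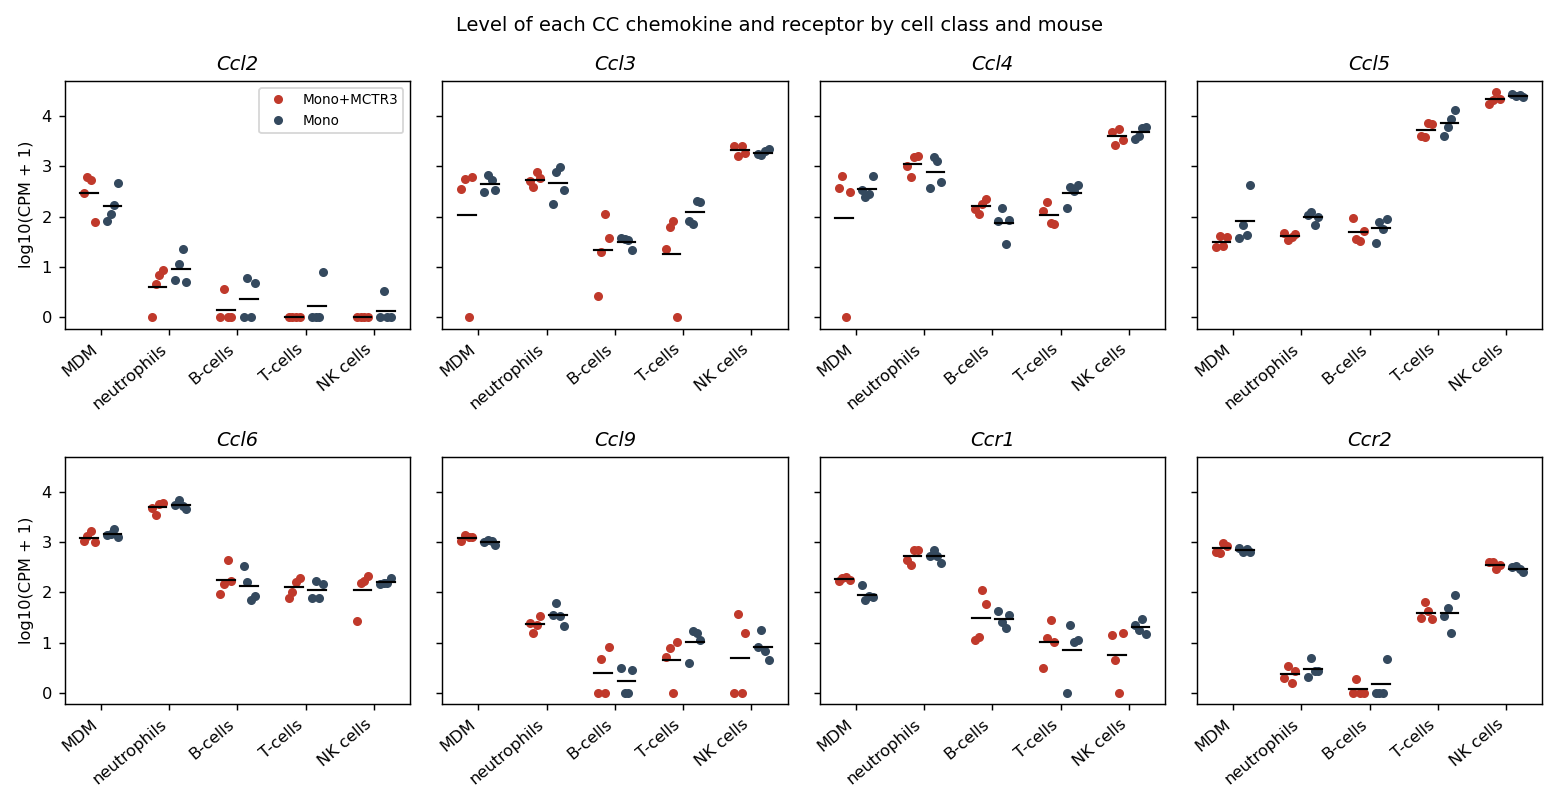
Level of the 8 genes as log10(CPM + 1) (vertical axes) in 5 cell classes. Each point is 1 mouse (Mono+MCTR3 left, Mono right within a class, n = 4 each) and the short lines are means. The order of the classes differed between genes, and within a class the groups overlapped except for Ccr1 in MDM and Ccl5 in neutrophils.

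The difference between MDM and neutrophils was tested over the 8 mice with the mouse as a block (edgeR quasi-likelihood test, Benjamini-Hochberg adjusted over 7680 genes). All 8 genes passed, where 70.8% of all genes tested passed. Ccr2 was higher in MDM by 7.18 ± 0.20 on the log2 scale (145-fold, adjusted p = 1.0e-20), Ccl2 by 4.05 ± 0.39 (16.6-fold, adjusted p = 7.2e-10) and Ccl9 by 3.99 ± 0.17 (15.9-fold, adjusted p = 5.9e-17). Lower in MDM were Ccr1 with a log2 fold change of -3.23 ± 0.18 (adjusted p = 8.9e-15), Ccl6 with -3.22 ± 0.14 (adjusted p = 7.3e-17), Ccl4 with -2.55 ± 0.32 (adjusted p = 8.5e-08), Ccl3 with -1.48 ± 0.23 (adjusted p = 3.6e-06) and Ccl5 with -1.16 ± 0.29 (adjusted p = 0.00084, ± SE throughout). These classes differ in their whole RNA: with library totals in place of TMM the median of all genes moved to 1.41 from 0.14 on the log2 scale, and the calls were 5340 higher and 910 lower in place of 2854 higher and 2585 lower. Under library totals Ccl3 was at -0.21 (adjusted p = 0.42) and Ccl5 turned to 0.07 (adjusted p = 0.84), while the other 6 kept direction and call. The size of their fold changes moved. Over the 4 alternatives, Ccr1 ran from -3.47 to -1.94, Ccl6 from -3.35 to -1.92 and Ccl4 from -3.15 to -1.26. Ccl2 ran from 3.65 to 5.33, Ccl9 from 3.65 to 5.28 and Ccr2 from 6.82 to 8.48. Ccl5 also lost its call without the block (-0.14, adjusted p = 0.79) and with CC genes kept in the clustering (-0.43, adjusted p = 0.38). Per cell, where MDM were the deeper cells, MDM held more than neutrophils of Ccl3 (2.8 UMIs in MDM and 1.2 in neutrophils), Ccl4 (2.95 and 2.17) and Ccl5 (0.812 and 0.15), which is the opposite of the order in the test.

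NK cells and T-cells were compared in the same way, over 4252 genes of which 37.1% passed. Of 5 genes tested, 4 were higher in NK cells: Ccl3 by 4.19 ± 0.23 on the log2 scale (18.3-fold, adjusted p = 1.6e-14), Ccl4 by 4.01 ± 0.17 (16.1-fold, adjusted p = 9.0e-17), Ccr2 by 2.42 ± 0.18 (5.35-fold, adjusted p = 8.9e-12) and Ccl5 by 1.58 ± 0.12 (2.99-fold, adjusted p = 7.6e-12). Ccl6, at a low level in both, was at -0.08 ± 0.16 on the log2 scale (SE, adjusted p = 0.73). Ccl2, Ccl9 and Ccr1 had too few UMIs in these classes to be tested.

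Single high cells held much of some levels. Among 28 pairs of a gene and a class with at least 100 UMIs, 7 had at least 10% of the UMIs in 1 cell: Ccl5 in MDM (38.1%), B-cells (22.9%) and neutrophils (11.3%), Ccl6 in T-cells (16.9%) and NK cells (12.2%), Ccl2 in neutrophils (15.4%) and Ccl3 in T-cells (12.5%). All 7 lay in a class other than the main source of the gene. In the main sources, the top cell held 0.0816% of Ccl6 in neutrophils, 0.152% of Ccr1 in neutrophils, 0.689% of Ccl5 in NK cells and 1.51% of Ccr2 in MDM, but 9.95% of Ccl2 in MDM. The neutrophil with the most Ccl5 (118 UMIs, Mono mouse 1) had 5235 UMIs of neutrophil markers and 59 UMIs of NK cell markers, and the MDM with the most (109 UMIs, Mono mouse 4) had 0 UMIs of macrophage markers and 1 of T-cell markers. Neither was called a doublet.

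**Figure D4:**
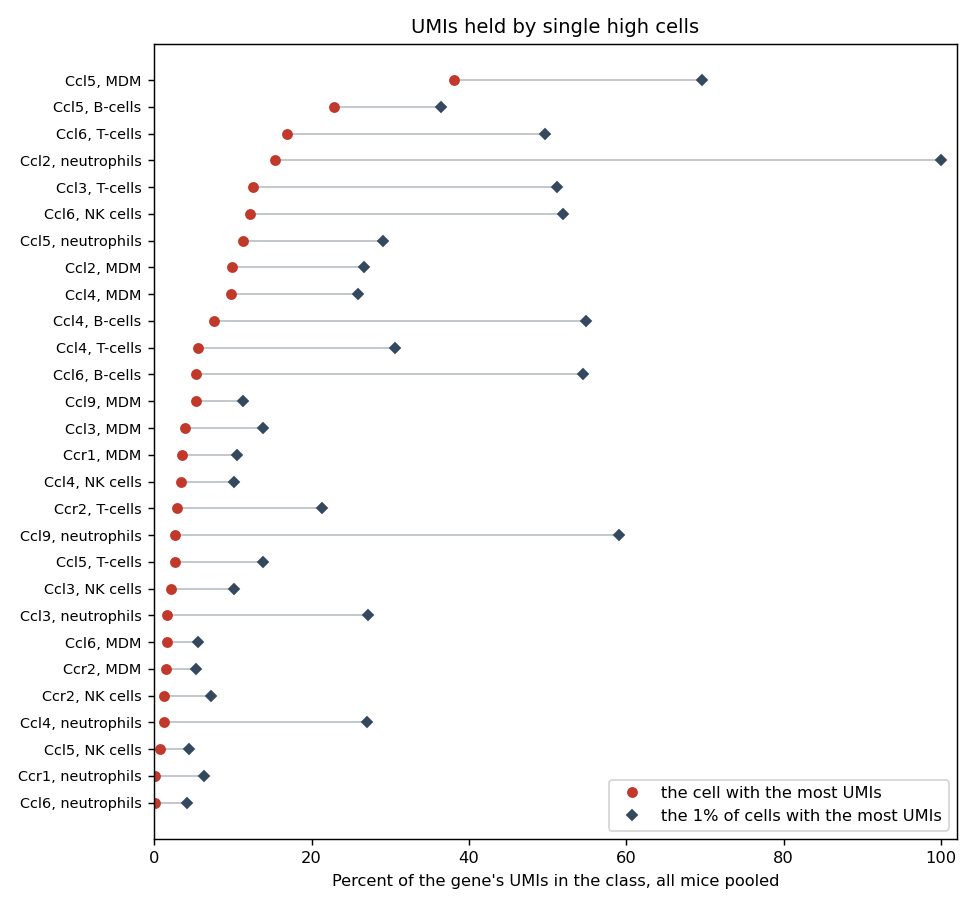
Percent of the UMIs of a gene in a class (horizontal axis, mice pooled) held by the cell with the most (circles) and by the 1% of cells with the most (diamonds), for the 28 pairs with at least 100 UMIs. Ccl5 in MDM is at the top with 38.1% in 1 cell, and Ccl6 in neutrophils at the bottom with 0.0816%.

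The groups were then compared within each class. In MDM, none of the 8 genes passed the edgeR quasi-likelihood test (0.0% of 2925 genes passed, and 178 were under an unadjusted p of 0.05), DESeq2 called 0 of the 8, and edgeR's likelihood ratio test called 1, Ccr1 (adjusted p = 0.042). Over all genes DESeq2 called 2 and the likelihood ratio test 14.

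Ccr1 in MDM was at 164, 195, 198 and 176 CPM in Mono+MCTR3 mice 1 to 4, against 136, 67.7, 84.4 and 78.7 CPM in Mono mice 1 to 4. The groups did not overlap, which held for 1 of the 8 genes and for 4.03% of all genes tested. The log2 fold change was 0.95 ± 0.22 (SE, adjusted p = 0.34, unadjusted p = 0.0010), so this difference did not pass the test across all genes. In UMIs it rests on 35, 116, 8 and 9 in Mono+MCTR3 mice and on 41, 12, 24 and 41 in Mono mice. The share of MDM with a Ccr1 UMI was 55.4% ± 7.86 in Mono+MCTR3 and 29.9% ± 13.97 in Mono mice (n = 4 each, SD, exact permutation p = 0.086). With each cell thinned to 500 UMIs the shares were 7.87% and 4.11% (exact p = 0.029, the smallest p that 4 against 4 mice allow). Over 30 such comparisons of shares without thinning, no Benjamini-Hochberg adjusted p was below 0.545. The p-values of the thinned shares were not adjusted. Without Mono mouse 1 the fold change was 1.17 with an adjusted p of 0.049. It was lower, at 0.31 to 0.65, in 4 other choices of the cells that make up MDM (CC genes kept in the clustering, no upper limit on genes, 10% mitochondrial UMIs and a resolution of 1.0), with adjusted p of 0.44 to 0.67.

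The nonclassical-monocyte-like cells, which nearly lack Ccr1 and Ccr2, were unevenly spread, with 6 in Mono+MCTR3 and 42 in Mono mice. With them left out of the MDM, Ccr1 had a fold change of 0.84 (adjusted p = 0.62). MDM made up 2.18% ± 1.87 of the cells in Mono+MCTR3 and 4.202% ± 1.73 in Mono mice (SD, n = 4 each, exact permutation p = 0.20).

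Ccl2 in MDM was at 287, 611, 520.2 and 78.1 CPM in Mono+MCTR3 mice, against 79.5, 113, 165 and 468 CPM in Mono mice. Each group held low and high mice and the groups overlapped. The log2 fold change was 0.82 ± 0.56 (SE, adjusted p = 0.89), and it was 1.71 (adjusted p = 0.47) without Mono mouse 4 and 0.28 (adjusted p = 1.00) without Mono+MCTR3 mouse 2. A UMI was seen in 36.9% ± 3.02 of MDM in Mono+MCTR3 and 23.9% ± 6.61 in Mono mice (n = 4 each, SD, exact permutation p = 0.057), and at 500 UMIs per cell in 12.6% and 6.74% (exact p = 0.31).

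Ccl5 in MDM was at 23.5, 40.4, 24.8 and 39.0 CPM in Mono+MCTR3 mice, against 36.4, 67.7, 42.2 and 420.3 CPM in Mono mice. Mono mouse 4 stood apart, with 109 of its 219 UMIs in 1 cell. The log2 fold change of -2.24 ± 0.87 (SE, adjusted p = 0.77) therefore rests on that mouse, and without it the gene had too few UMIs to be tested. The other genes in MDM, Ccl3, Ccl4, Ccl6, Ccl9 and Ccr2, had log2 fold changes between -0.30 and 0.23, with adjusted p of 0.85 to 1.00. For Ccr2 the values were 639, 613, 966 and 819.6 CPM in Mono+MCTR3 and 749, 626, 710.0 and 639 CPM in Mono mice, a fold change of 0.05 ± 0.16 (SE).

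In neutrophils 1 of the 7 genes tested passed, where 0.0563% of 5326 genes (3 genes) did. This was Ccl5, at 46.2, 33.1, 37.8 and 44.3 CPM in Mono+MCTR3 mice, against 107, 122, 67.0 and 96.7 CPM in Mono mice, without overlap (2.01% of all genes did not overlap). The difference was -1.22 ± 0.18 on the log2 scale (SE, adjusted p = 0.035, edgeR quasi-likelihood test), and all 4 Mono+MCTR3 mice were below all 4 Mono mice. DESeq2 (adjusted p = 7.3e-05) and edgeR's likelihood ratio test (adjusted p = 3.6e-06) called it too. In Mono mouse 1, 118 of the 191 UMIs came from 1 cell, and without that cell the mouse was at 40.8 CPM. With the top cell of each mouse left out, the fold change was -1.08 (adjusted p = 0.85). The call was lost when any mouse other than Mono mouse 3 was left out (adjusted p of 0.064 to 0.21), with fold changes of -1.29 to -1.15 that stayed close to the one in all mice. It was also lost with doublets removed (-1.18, adjusted p = 0.23) and at a limit of 10% mitochondrial UMIs, where the fold change was -0.77 (adjusted p = 0.95).

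The level of Ccl5 in neutrophils is given here beside its level in all cells of the same mouse. Over all cells Ccl5 was at 1326, 1311, 1871 and 2657 CPM in Mono+MCTR3 mice, against 1660, 3930, 2496 and 3842 CPM in Mono mice. NK cells and T-cells together made up 8.34% to 14.5% of the cells in Mono+MCTR3 and 11.04% to 19.97% in Mono mice. In B-cells, Ccl5 was at 31.2 to 91.8 CPM in Mono+MCTR3 and 29.4 to 88.1 CPM in Mono mice, overlapping. The NK gene Gzma in neutrophils was at 6.08 to 10.5 CPM in Mono+MCTR3 and 11.4 to 33.0 CPM in Mono mice, again without overlap. Nkg7, another gene of cytotoxic lymphocytes, was at 7.55 to 30.1 CPM in Mono+MCTR3 and 16.2 to 27.4 CPM in Mono mice, and these groups overlapped, with Mono+MCTR3 mouse 2 the highest of the 8. Both genes were chosen after their values had been seen. The part of free RNA from lymphocytes in the Ccl5 call was not tested.

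The other genes tested in neutrophils kept below the threshold. Ccl9 was at 23.9, 14.8, 20.9 and 32.1 CPM in Mono+MCTR3 and 35.2, 61.1, 32.9 and 20.6 CPM in Mono mice, a difference of -0.69 ± 0.27 on the log2 scale (SE, adjusted p = 0.99). Ccl2 had -1.25 ± 0.64 (adjusted p = 0.99) on 104 UMIs in all. Ccl3, Ccl4, Ccl6 and Ccr1, with the bulk of their UMIs in these cells, had fold changes of 0.08 ± 0.37, 0.46 ± 0.37, -0.07 ± 0.14 and 0.09 ± 0.18 (SE). Between mice of 1 group Ccl3 spread widely, with 504, 382, 754 and 591 CPM in Mono+MCTR3 and 175, 772, 961 and 334 CPM in Mono mice, so that the groups overlapped over most of their range. Ccl6 ran at 4757, 3451, 5638 and 5934 CPM in Mono+MCTR3 and 5354, 6725, 5102 and 4508 CPM in Mono mice.

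**Figure D5:**
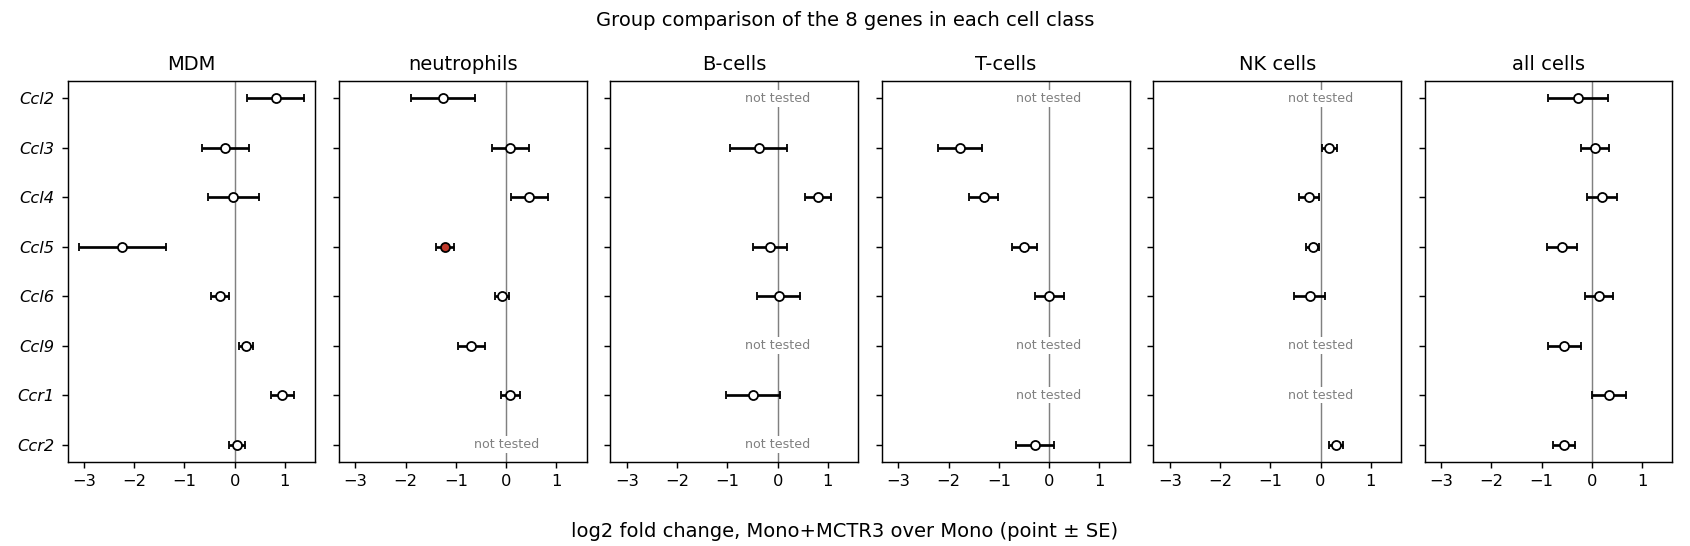
Log2 fold change of Mono+MCTR3 over Mono (horizontal axes, point ± SE from edgeR) for the 8 genes in 5 cell classes and in all cells. Filled points passed the adjusted threshold of 0.05, which was the case for Ccl5 in neutrophils alone, and genes with too few UMIs are given as not tested.

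In T-cells, none of the 5 genes tested passed (0.0% of 3435 genes, 178 at an unadjusted p under 0.05; DESeq2 called 0 and the likelihood ratio test 1) and 0 of 5 had groups without overlap (2.68% of all genes), and Ccl3 and Ccl4 had the fold changes farthest from 0. Ccl4 was at 128, 191, 74.7 and 71.1 CPM in Mono+MCTR3, against 145, 383, 314 and 419.9 CPM in Mono mice, and only Mono+MCTR3 mouse 2 and Mono mouse 1 overlapped. Its log2 fold change was -1.30 ± 0.29 (SE, adjusted p = 0.64, unadjusted p = 0.00023). Ccl3 was at 21.4, 60.4, 81.5 and 0 CPM in Mono+MCTR3 and 80.1, 71.8, 199.7 and 193 CPM in Mono mice. The 0 of Mono+MCTR3 mouse 4 is a count of 0 in 57 cells, which allows up to 14.2 CPM. The fold change of Ccl3 was -1.77 ± 0.44 (SE, adjusted p = 0.64). Ccl4 passed without Mono mouse 1 (-1.53, adjusted p = 0.014) and in edgeR's likelihood ratio test (adjusted p = 0.038). A Ccl4 UMI was seen in 15.3% ± 3.23 of T-cells in Mono+MCTR3 and 24.4% ± 7.62 in Mono mice (n = 4 each, SD, exact permutation p = 0.086), and at 500 UMIs per cell in 3.98% and 9.09% (exact p = 0.029). Ccl5 in T-cells had a fold change of -0.49 ± 0.26 (SE, adjusted p = 0.91).

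In NK cells, the class with the highest Ccl3, Ccl4 and Ccl5, none of the 5 genes tested passed (0.0% of 2229 genes, 111 at an unadjusted p under 0.05; DESeq2 and the likelihood ratio test called 0), and 0 of 5 had groups without overlap (3.59% of all genes). Ccl5 was at 17382, 20541, 29354 and 21707 CPM in Mono+MCTR3 and 26606, 25197, 25424 and 23256 CPM in Mono mice, with the group means close and the spread wider in Mono+MCTR3. Ccr2 was at 390.2, 393, 294 and 348 CPM in Mono+MCTR3 and 317, 324, 289 and 251 CPM in Mono mice, and had a fold change of 0.32 ± 0.14 (SE, adjusted p = 0.94). Ccl3, Ccl4 and Ccl5 had 0.17 ± 0.15, -0.23 ± 0.20 and -0.16 ± 0.12 (SE).

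In B-cells none of the 5 genes tested passed (0.0% of 3936 genes, 195 at an unadjusted p under 0.05; DESeq2 called 0 and the likelihood ratio test 2), and 0 of 5 had groups without overlap (3.33% of all genes). Ccl4 had the largest fold change among the 5, 0.81 ± 0.26 (SE, adjusted p = 0.96), at 143, 114, 179 and 225 CPM in Mono+MCTR3, against 82.0, 147, 28.1 and 86.2 CPM in Mono mice. The values of Mono+MCTR3 mice 3 and 4 came from 23 and 31 UMIs, of which 1 cell held 82.6% and 93.5%, and the cell of mouse 4 had 283 UMIs of neutrophil markers. The direction turned when clusters were built from 10 or 30 principal components.

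Over all cells summed per mouse, where fewer cells of a type and less RNA per cell cannot be told apart, none of the 8 passed (0.0222% of 9002 genes did, and 396 were under an unadjusted p of 0.05; DESeq2 called 0 of the 8), and for 0 of 8 the groups did not overlap (3.81% of all genes). Ccr2 was at 64.5, 89.5, 35.2 and 59.5 CPM in Mono+MCTR3 and 92.1, 84.7, 99.9 and 122 CPM in Mono mice, a difference of -0.56 ± 0.21 on the log2 scale (SE, adjusted p = 1.00). Only Mono+MCTR3 mouse 2 reached into the range of the Mono mice. That mouse also held the most MDM of its group.

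The rest of the CC family was sparse. Of 13 other CC chemokines 7 had at least 20 UMIs, and none was tested in any of the 5 classes. Ccl7 (323 UMIs), which also binds Ccr2, lay to 74.3% in MDM, and Ccl17 (259 UMIs) to 97.7%, with 69.1% in 1 cell. Of 13 other CC or atypical receptors 6 had at least 20 UMIs. Ccrl2, an atypical receptor that binds chemerin, had 7003 UMIs, 93.0% in neutrophils and 54.9% in cluster 2 alone, the cluster high in Ccl3 and Ccl4. Ccr7, the lymph node homing receptor (4695 UMIs), was in B-cells (68.4%) and T-cells (27.6%), and Ccr9 (207 UMIs) to 69.6% in the mixed cluster 11. Of these 26 genes 1 was tested in each class and 0 passed. Of the 17 genes of chemokine receptor signalling (G protein subunits, arrestin, receptor kinases and regulators), 16 had a row, 13 to 16 were tested per class, and 0 passed. Their median log2 fold change was between -0.07 and 0.11 in the 5 classes, beside -0.00 to 0.01 for all genes tested.

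The genes most like each member were found by the Pearson correlation of log2(CPM + 10) over the 15 clusters among 6766 genes with at least 200 UMIs. The clusters share libraries and differ in depth, so the values are a description. Ccl3 and Ccl4 were each other's nearest gene (r = 0.91), followed by Runx2 (0.89) and Adipor2 (0.86) for Ccl3 and Adipor2 (0.91) and Selplg (0.90) for Ccl4. Ccl5 was nearest to Il2rb (0.99), a receptor subunit of NK cells and T-cells, Sh2d1a (0.98) and Txk (0.98). Ccl6 was nearest to Nlrp3 (0.97), the inflammasome sensor, Slc2a6 (0.96) and Il1b (0.96), and Ccr1 to Mboat7 (0.98), Smim3 (0.95) and Sesn2 (0.95). Ccl2 was nearest to Ifi211 (0.96), Cd302 (0.92) and Mt1 (0.91), Ccl9 to Khk (0.93), Tnip3 (0.90) and Ppfia4 (0.90), and Ccr2 to Ptpn11 (0.89) and, among others, Dr1 (0.87).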

How the data were processed

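Per the labels and methods, the authors counted UMIs per gene and barcode with Cell Ranger on GRCm38 and joined the 4 mice of a group by aggregation. Cell Ranger, edgeR and GRCm38 stand in the processing notes of the submitters, without a version. The deposited tables, 1 per group, hold these raw UMI counts. The joining was done per group, so read depth was equalised, if at all, within a group only. Of the gene rows, 17 repeat a name and were kept apart. Intervals and floors cover counting error only.

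Cells (the filter removed 40 barcodes under the lower limits, 40 over 3000 genes and 209 over 5% mitochondrial UMIs, some for more than 1 reason) were scaled to 1000, log transformed and grouped into clusters with R 4.3.3 and Seurat 5.3.0 from 2000 variable genes without the 21 CC genes among them, with 20 components, a resolution of 0.5 and seed 1. Clusters were named from 17 marker lists, at least 3 markers in at least 10% of cells, with the scoring set after the data had been seen. Scrublet (scanpy 1.11.5) called 52 doublets (0.507%), which were kept.

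For each class the UMIs of a mouse were summed and tested with edgeR 4.0.16 (TMM, filterByExpr, glmQLFit, glmQLFTest, Benjamini-Hochberg, threshold 0.05), with DESeq2 1.42.0 and edgeR's likelihood ratio test as alternatives. The contrasts between classes had the mouse as a block, because both classes come from the same mouse. Shares were compared by two-sided exact permutation tests over mice, with a smallest p of 0.0286. A standard error is the size of the log2 fold change over the root of its F value. The edgeR step was tested on simulated data: with 200 of 2925 genes changed by 2 on the log2 scale at the depth of MDM, 86.5% were recovered and 8 of 181 calls were false. At the depth of neutrophils (5326 genes) 93% were recovered. Smaller changes were not simulated, so how many of those would be recovered was not measured. The genes named are the 8 members, other CC genes with at least 200 UMIs, and the 3 genes most like each member. Members and lists were chosen with earlier results of these data known. Alternatives changed the normalization, the filter, the clustering, the cell limits and the mice, and neutrophil clusters alone, mice with at least 10 MDM and MDM cluster 10 alone were added after seeing the data. Python 3.11.15, numpy 2.4.6, pandas 2.3.3, scipy 1.17.1 and matplotlib 3.10.9 were used. The values of 1 other gene are not reported here.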

Additional observations from a re-analysis of the deposited data

Results flagged for a closer look

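Among 86 sets of 4 mice (a gene, a class and a group, with at least 20 UMIs in the class), 1 had a mouse far from the other 3. Ccl5 in MDM of Mono mouse 4 was at 420 CPM, against 36.4 to 67.7 CPM in the other 3 Mono mice. Of its 219 UMIs over 83 cells, 109 were in 1 cell. By chance about 1 in 20 sets is marked in this way.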

How the results depend on the processing

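The class with the highest level was the same for 8 of 8 genes under 6 alternatives and with each mouse left out. In MDM the number of genes called became 1 with the likelihood ratio test (Ccr1), 1 without a filter on low counts (Ccl5) and 1 with CC genes kept among the variable genes (Ccl6), and 0 to 1 with 1 mouse left out. In neutrophils it became 0 at resolutions of 0.3 and 1.0, with 10 and 30 components, with doublets removed, at 10% mitochondrial UMIs and without the top cell, 0 in clusters 0, 1 and 2 alone (an alternative chosen after seeing the data), and 0 to 1 with 1 mouse left out. Without a filter it became 1 in B-cells (Ccl4) and 3 in T-cells (Ccl3, Ccl4 and Ccl5), and it was 1 in T-cells by the likelihood ratio test, with 0 to 1 called with 1 mouse left out. Over all genes, the fits without a filter called 90 of 12398 in MDM, 20 of 12586 in B-cells and 27 of 12549 in T-cells. With CC genes kept, 85 of 2366 genes passed in MDM, where 0 of 2925 passed in the main fit. The likelihood ratio test called 14 of 2925 genes in MDM and 1 of 3435 in T-cells. Without Mono mouse 1, 6 of 2885 genes passed in MDM and 1 of 3875 in T-cells. Of the 30 shares of cells with a UMI, 2 passed an exact p of 0.05 at 500 UMIs per cell (Ccr1 in MDM and Ccl4 in T-cells). These p-values were not adjusted, and the shares of other genes were not tested, so no background stands beside this count. Among the fold changes followed under every alternative, the direction turned for Ccl4 in B-cells with 10 (-0.0016) and 30 components (-0.32), for Ccl5 between MDM and neutrophils with library totals (0.071), and for Ccl6 between NK cells and T-cells without the replicate block (0.0030), with library totals (0.28) and with CC genes kept (0.011). The cause was not tested. Directions of other fold changes that passed no test turned more widely: direction was kept in MDM by Ccl3 in 17, Ccl4 and Ccr2 in 15 and Ccl9 in 20 of 23 alternatives (Ccl9 down to -0.29), in neutrophils by Ccl3 in 17 of 24 and by Ccl6 and Ccr1 in 22, in B-cells by Ccl6 in 10 and Ccl5 in 18 of 21 and by Ccl3 and Ccr1 in 13 of 15, in T-cells by Ccl6 in 13 of 21 and Ccr2 in 19 of 20, in NK cells by Ccl6 in 19 of 21, and over all cells by Ccl3 in 12, Ccl6 in 14 and Ccl2 and Ccl4 in 15 of 16. Not all were near 0, with Ccr1 at -0.49 and Ccl3 at -0.38 in B-cells and Ccl2 at -0.28 over all cells. The 8 genes tested had a median log2 fold change of 0.01 in MDM, 7 had -0.07 in neutrophils, and 5 each had -0.15 in B-cells, -0.49 in T-cells and -0.16 in NK cells, where all genes were within 0.01 of 0. Without the block, 7 of 8 genes passed between MDM and neutrophils, where 3638 of all 4673 genes tested passed. Between NK cells and T-cells 4 of 5 passed, where 1141 of all 2788 genes did. No paired analysis was possible because the labels give Mono+MCTR3 and Mono mice no shared replicate numbers, and a barcode suffix only names a library.

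Depth limits Ccl2 and Ccl9 in lymphocytes, Ccr2 in B-cells and Ccr1 in T-cells and NK cells, where mice were at 0. It also limits MDM in Mono+MCTR3 mice 3 and 4. A count of 0 for Ccl3 and Ccl4 in the 8 MDM of Mono+MCTR3 mouse 3 allows up to 74.3 CPM.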
